A study of Mus musculus with 7 samples.

Results

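The 10 transcripts described here encode the machinery that cuts proteins into peptides and loads them onto MHC class I molecules: the inducible proteasome subunits Psmb8, Psmb9 and Psmb10, the PA28 activator chains Psme1 and Psme2, the trimming peptidase Erap1, the peptide transporter chains Tap1 and Tap2, and the loading factors Tapbp and Tapbpl. They were taken by gene symbol from a table of 23329 symbols, and all 10 were found. The cells are Beta-TC6, a mouse beta-cell tumour line that secretes insulin, labelled WT (wild type) in every sample, and their polyadenylated RNA was sequenced. There were 3 libraries from cells given IL1B, the inflammatory cytokine interleukin-1 beta, and 4 from cells given vehicle. Per the labels' protocols, all cells had a 1 h pulse of 10 µM forskolin for synchronisation and grew with 15% serum. The sources used here give neither the dose of IL1B nor how long it was applied nor when cells were harvested, and the cells are a single tumour line, not islets.

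Proteasomes degrade tagged proteins, and in the standard particle the catalytic sites belong to Psmb5, Psmb6 and Psmb7. In cells exposed to interferons these subunits can be replaced by Psmb8 (LMP7), Psmb9 (LMP2) and Psmb10 (MECL-1), which gives the immunoproteasome, while the PA28 ring caps the core and opens it. TAP carries the peptides into the endoplasmic reticulum, ERAP1 trims them, and tapasin and its relative TAPBPR (the product of Tapbpl) help class I molecules to select them. In type 1 diabetes, beta cells are known to show raised class I on their surface, the form in which cytotoxic T cells see them.

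Of the 10 transcripts 4 rose with IL1B (Psmb10, Tapbp, Tapbpl and Psme2) and none fell by edgeR's quasi-likelihood test, at a Benjamini-Hochberg adjusted p under 0.05 over all genes. Over the 12480 genes tested, 7.76% were called higher and 3.25% lower. The lower share stands for 406 genes, a count that was 252 without IL1B library 3, 676 with the second library of each group left out and 867 with a correction for length and GC content. All 10 passed the low-count filter, and the counts were also 4 and 0 by DESeq2, by limma-voom and with edgeR's p before adjustment. In the same 4 every IL1B library lay above every vehicle library, as in 12.1% of all tested genes, and in none did every IL1B library lie below, as in 8.83%. The increases were 1.93-fold for Psmb10, 1.80-fold for Tapbp, 1.64-fold for Tapbpl and 1.20-fold for Psme2. Tap1, Tap2, Psmb8, Psmb9, Psme1 and Erap1 did not pass. The median log2 fold change of the 10 was 0.25, against -0.0087 for all tested genes.

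The stretches before the start sites are shown because the members did not move alike, and Tap1 and Psmb9 share a single such stretch. The sequences are RefSeq's for GRCm38.p6, the assembly of mm10, which the submitters' processing notes name. Of the 10 members 8 had promoter entries, with 9 windows of 250 bases before to 50 after a start site. Capitals mark matches to the searched motifs, and a line without capitals holds none. Start sites are RefSeq's and can lie inside the GENCODE gene models whose positions are given below. The first line is the 225 bases between the facing start sites of Psmb9 and Tap1 (plus strand, chr17:34187331-34187555), and the next ones run from 100 bases before to 25 after the start sites of Tapbp (plus strand, chr17:33919378-33919502), Psmb10 (minus strand, chr8:105938368-105938492) and Psmb8 (plus strand, chr17:34198095-34198219). The last ones run from 50 bases before to 25 after the start sites of Psme1 (plus strand, chr14:55578444-55578518) and Erap1 (plus strand, chr13:74639803-74639877).
Tap1-Psmb9: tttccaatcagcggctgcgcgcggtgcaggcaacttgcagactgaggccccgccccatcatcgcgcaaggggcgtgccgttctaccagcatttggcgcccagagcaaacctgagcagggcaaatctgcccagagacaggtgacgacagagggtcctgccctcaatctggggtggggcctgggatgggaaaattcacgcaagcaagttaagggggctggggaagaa
Tapbp: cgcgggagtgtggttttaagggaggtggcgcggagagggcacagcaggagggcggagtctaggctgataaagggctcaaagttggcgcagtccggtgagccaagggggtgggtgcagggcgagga
Psmb10: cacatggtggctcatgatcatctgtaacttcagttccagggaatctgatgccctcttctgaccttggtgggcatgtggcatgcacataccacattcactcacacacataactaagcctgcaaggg
Psmb8: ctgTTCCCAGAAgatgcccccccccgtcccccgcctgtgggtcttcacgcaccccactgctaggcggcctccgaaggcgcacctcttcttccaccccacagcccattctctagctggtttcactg
Psme1: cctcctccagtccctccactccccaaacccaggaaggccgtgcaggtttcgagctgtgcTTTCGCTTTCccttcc
Erap1: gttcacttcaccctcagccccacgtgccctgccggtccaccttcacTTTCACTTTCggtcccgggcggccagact

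On both strands, the interferon-type motif (GAAA, any NN, then GAAA again) was found in the windows of 2 of these 8 members, Psme1 and Erap1, against 3.44% of all 32851 promoter windows. In Psme1 the match begins 9 bases after the start site and in Erap1 4 bases before it, both on the opposite strand, so that the capitals read TTTC. The palindromic motif TTCNNNGAA was found in 1 of 8, Psmb8, against 8.30% of all windows. No window of the 8 held the NF-kB consensus, which 8.46% of all windows held. The members are counted per gene, over 9 windows, and the shares of all promoters per window, so the units differ. The motifs do not overlap each other here, and a missing match says only that the letters are not in these windows. The members with a match (Psme1, Erap1 and Psmb8) did not pass the test. Psmb10, Tapbp and Psme2, which rose, had no match, and neither had Tap1 and Psmb9, which did not pass. Tap2 and Tapbpl had no promoter entry, and a link between these motifs and the changes was not tested.

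Libraries held 6007723 to 6969745 counts with IL1B and 5335607 to 7513934 with vehicle. Levels below are CPM: counts of a gene per 1e6 of the library's TMM-scaled total over tested genes. Across all genes 968 rose and 406 fell, or 844 and 556 with total-count scaling. The second vehicle library stood apart: across genes, Spearman's rho between transcript length and the difference from the vehicle mean was -0.54 there and from 0.215 to 0.297 for the rest of that group, with genes that are not independent of each other. The second IL1B library also stood apart, with a chi-square per degree of freedom of 4.21 and 2.90 in its pairs, against 1.72 for the other IL1B pair; pairs with the second vehicle library gave 3.89 to 4.93 and the other vehicle pairs 1.53 to 1.60. The 8 beta-cell markers were all present and summed to 34848 to 36006 CPM with IL1B and 31427 to 36745 with vehicle, and Ins2 alone stood at 22371 ± 715 CPM (SD, n = 3) with IL1B and 21183 ± 1599 (n = 4) with vehicle. Of the 8, the beta-cell factors Pdx1 and Mafa fell (edgeR adjusted p = 3.00e-07 and 7.01e-06), with 239 and 152 CPM with IL1B and 354 and 211 with vehicle. The other 6 did not pass. With an edgeR p under 0.05 before adjustment, 2 of the 8 were higher and 3 lower. The 12 measured markers of leukocytes and professional antigen-presenting cells, which express the immunoproteasome, summed to 8.16 to 9.11 CPM with IL1B and 5.38 to 7.99 with vehicle. Of these 2 were tested, Ciita and Cd68, and neither passed by edgeR, by DESeq2, by limma-voom or before adjustment. Itgam had 2, 1 and 2 counts in the IL1B libraries and 0 in all vehicle libraries. Itgax was at 0 in all IL1B libraries and had 1 count over the vehicle libraries. Ptprc had 9 counts over the IL1B and 8 over the vehicle libraries, and Lyz2 had 3 and 11. Cd74, the class II invariant chain, had 11, 15 and 22 counts with IL1B, against 0, 0, 2 and 3 with vehicle. Its groups did not overlap in CPM, and it was not tested. Markers of other islet cells summed to 531 to 585 CPM with IL1B and 568 to 629 with vehicle, and stromal or endothelial ones to 5.39 to 7.65 with IL1B and 4.46 to 8.11 with vehicle. Within these lists, Pecam1, an endothelial and leukocyte adhesion gene, had 15, 17 and 9 counts with IL1B, against 6, 5, 3 and 3 with vehicle, with no overlap in CPM. Ppy, the pancreatic polypeptide gene, had 4 counts over the IL1B and 33 over the vehicle libraries. Both were below the filter and not tested. The part of other cells in the changes below was not tested. In bulk RNA, fewer cells of a type and less RNA per cell cannot be told apart.

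Psmb10 alone among the inducible catalytic subunits passed the test. It is the trypsin-like subunit that takes the place of Psmb7 and lies on chromosome 8 (GRCm38, 105935735 to 105938444). Its CPM were 25.9, 35.9 and 33.4 in the IL1B libraries, against 14.2, 18.6, 15.9 and 16.9 in the vehicle libraries. Every IL1B library lay above every vehicle library, and the first IL1B library was the lowest of its group. The log2 fold change was 0.95 (SE 0.12, edgeR adjusted p = 1.34e-05). The antisense gene Gm16156 spans all 2710 bases of Psmb10, and where counting ignored strand the reads of these genes cannot be told apart. The same limit holds for Psmb8 and Tap2, where Gm20496 lies opposite 2139 and 1923 bases. Gm15821 also lies opposite 3148 bases of Tap2.

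Psmb8, the chymotrypsin-like inducible subunit, stood at 11.5, 14.8 and 11.8 CPM with IL1B, against 11.6, 13.9, 8.81 and 12.1 with vehicle. The groups overlapped, and the log2 fold change was 0.12 (SE 0.15, edgeR adjusted p = 0.711). The 95% interval of its fold, 0.870 to 1.36, lies below that of Psmb10, 1.62 to 2.31. The ratio of Psmb10 to Psmb8 counts was 2.25, 2.43 and 2.83 with IL1B, against 1.23, 1.34, 1.80 and 1.40 with vehicle; this pair was chosen after its values were seen, and the difference was not tested. Psmb9, the inducible subunit that takes the place of Psmb6, was the scarcest member, with 14, 19 and 15 counts in the IL1B libraries, against 17, 6, 12 and 6 in the vehicle libraries. Its fold of 1.56 has an interval of 0.944 to 2.57 (edgeR adjusted p = 0.290), which includes both no change and the fold of Psmb10.

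**Figure D1:**
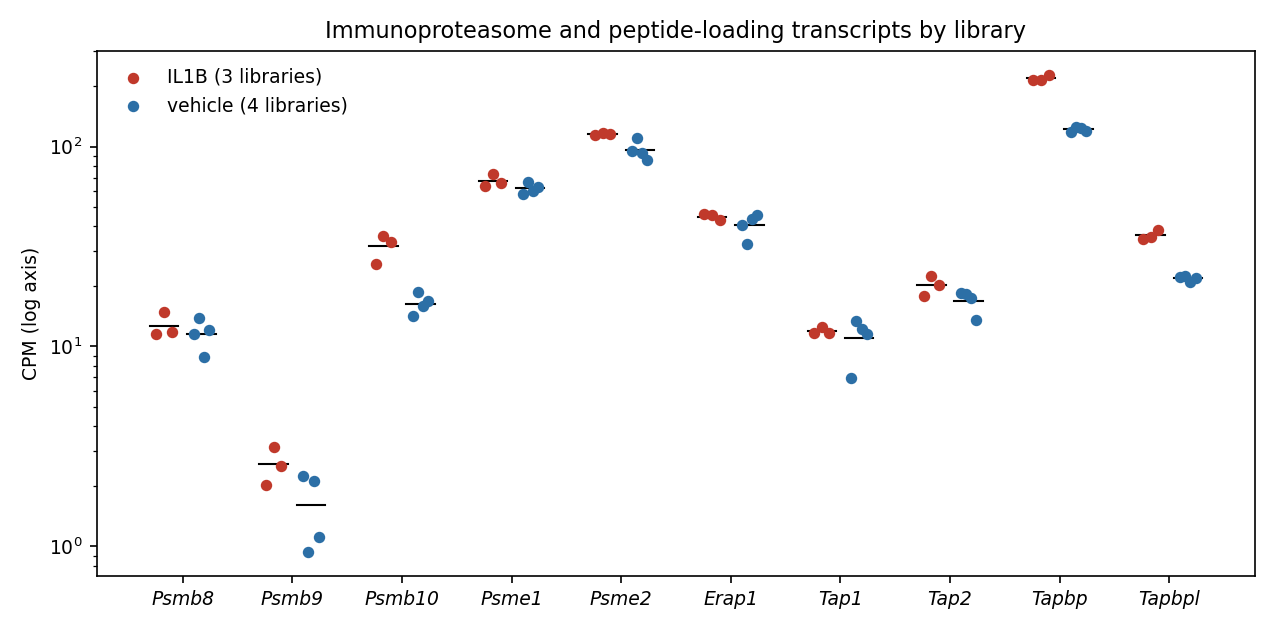
CPM of the 10 transcripts on a log axis, with 1 point per library, IL1B at the left and vehicle at the right of each gene, and the group mean as a line. Psmb10, Tapbp, Tapbpl and Psme2 show no overlap between groups, and Psmb9 lies lowest, at 2.58 CPM on average with IL1B and 1.60 with vehicle.

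The constitutive counterparts stayed far more abundant. Per kilobase of merged exons, Psmb5 averaged 258 ± 21.6 CPM per kb with IL1B and 235 ± 20.9 with vehicle (SD, n = 3 and 4), and Psmb8 3.76 ± 0.537 with IL1B and 3.43 ± 0.626 with vehicle. Psmb10 made up 17.4%, 22.2% and 21.0% of the summed Psmb10 and Psmb7 level in the IL1B libraries, against 10.8%, 12.0%, 11.7% and 12.6% in the vehicle libraries. All IL1B libraries lay above all vehicle libraries for this pair. The log2 ratio of Psmb10 to Psmb7 was 0.92 higher with IL1B. The exact two-sided permutation p was 0.0286, the smallest the 35 splits allow. After adjustment over the 4 ratios tested it was 0.114 and did not pass. A ratio that alone reaches the smallest p cannot pass this adjustment, so no conclusion is drawn from the failure.

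Psmb8 made up 1.43% ± 0.0839 of its pair with Psmb5 in IL1B libraries and 1.44% ± 0.173 in vehicle libraries (exact permutation p = 1.00, n = 3 and 4). Psmb9 made up 0.577% ± 0.125 of its pair with Psmb6 with IL1B and 0.378% ± 0.170 with vehicle (exact permutation p = 0.229, adjusted 0.305), with overlapping groups. Taken over the 6 catalytic subunits, the inducible ones held 4.83% ± 0.534 of the level per length with IL1B and 3.08% ± 0.165 with vehicle. Among them Psmb10 averaged 18.6 CPM per kb with IL1B and 9.62 with vehicle. Psmb8 averaged 3.76 and 3.43, and Psmb9 0.704 and 0.438, in the same order. Psmb5, Psmb6 and Psmb7 themselves had folds of 1.10, 1.03 and 1.02 and none passed by edgeR, by DESeq2, by limma-voom or before adjustment. Psmb5 was called higher once the second vehicle library was left out (edgeR adjusted p = 0.0305), and its transcript shares 88.4% of its length, at 98.9% identity, with Gm3375.

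**Figure D2:**
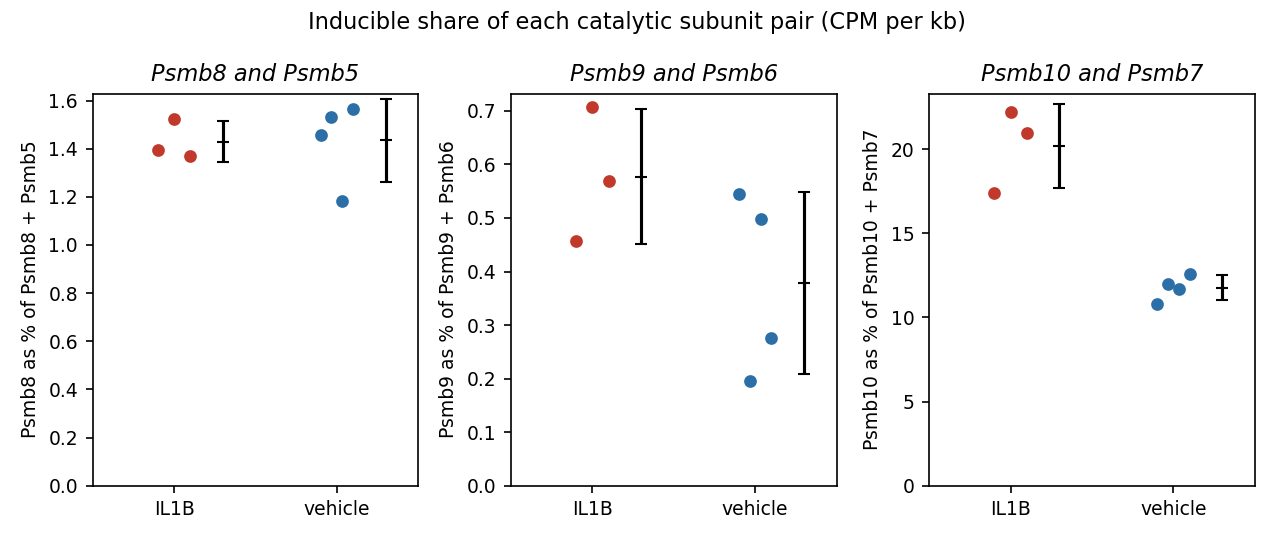
Share of the inducible subunit in each pair, as a percent of the summed CPM per kilobase, with 1 point per library and the group mean ± SD beside it. In the Psmb10 and Psmb7 pair the IL1B libraries run from 17.4% to 22.2% and the vehicle libraries from 10.8% to 12.6%, while the groups overlap in the other pairs.

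Both chains of PA28, the interferon-inducible cap of the proteasome, were well expressed, and Psme2 passed the test. Psme2 (chromosome 14, 55587441 to 55591113), the beta chain, stood at 114, 117 and 115 CPM with IL1B, against 94.5, 110, 92.9 and 85.8 with vehicle. The groups did not overlap, although the second vehicle library came close (log2 fold change 0.27, SE 0.07, edgeR adjusted p = 0.0228). The call was lost without vehicle library 1, 3 or 4 or any single IL1B library (adjusted p 0.0637 to 0.0926) and kept when the second vehicle library was left out (adjusted p = 0.000452). Its transcript shares 82.5% of its length, at 99.4% identity, with the copy Psme2b, so its count is uncertain.

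Psme1, the alpha chain, lies on the same chromosome (55578123 to 55581529) and stood at 63.4, 73.3 and 65.8 CPM with IL1B, against 58.1, 66.4, 60.1 and 62.6 with vehicle. The groups overlapped, and the fold of 1.09 had an interval of 0.977 to 1.22 (edgeR adjusted p = 0.358). The log2 ratio of Psme1 to Psme2 per length differed by -0.15 between IL1B and vehicle (exact permutation p = 0.171, adjusted 0.305, n = 3 and 4). Psme3, which encodes the nuclear PA28 gamma ring and is no member of the inducible set, rose 1.23-fold, with 144, 156 and 143 CPM in IL1B libraries, against 121, 126, 114 and 119 in vehicle libraries (edgeR adjusted p = 0.00253).

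The transcripts for bringing peptides into the endoplasmic reticulum and trimming them did not pass. Tap1 (chromosome 17, 34187553 to 34197225) stood at 11.7, 12.5 and 11.6 CPM with IL1B, against 6.98, 13.5, 12.2 and 11.5 with vehicle. The first vehicle library was low and the other vehicle libraries spanned the range of those with IL1B (fold 1.10, interval 0.849 to 1.42, edgeR adjusted p = 0.728). Tap2 (34203527 to 34216321) stood at 17.9, 22.4 and 20.4 CPM with IL1B, against 18.6, 18.3, 17.5 and 13.6 with vehicle. These groups overlapped as well (fold 1.18, interval 0.986 to 1.41, edgeR adjusted p = 0.267). Erap1, the aminopeptidase on chromosome 13 (74639568 to 74693201), stood at 45.9, 45.2 and 42.8 CPM with IL1B, against 40.5, 32.4, 43.4 and 45.3 with vehicle. Its fold was 1.11 (interval 0.961 to 1.28, edgeR adjusted p = 0.408). Over 16 alternative settings none of these transcripts passed, and Tap1 was the only member whose log2 fold change took a negative value in any of them (-0.06 without the first vehicle library).

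Both loading factors rose. Tapbp, the gene of tapasin, which holds class I beside TAP, lies on chromosome 17 (33915899 to 33929292) and stood at 216, 215 and 229 CPM with IL1B, against 118, 125, 124 and 120 with vehicle. Within each group the libraries were close, and the groups were far apart (log2 fold change 0.85, SE 0.06, edgeR adjusted p = 1.68e-09). The ratio of Tapbp to Tap1 counts was 18.5, 17.2 and 19.7 with IL1B, against 16.9, 9.27, 10.2 and 10.5 with vehicle; the pair was chosen after its values were seen and the difference was not tested. Zbtb22, which overlaps the Tapbp model on the same strand, had a fold of 1.08 (edgeR adjusted p = 0.492). The antisense gene Gm19412, which was not measured here, overlaps 1207 bases of Tapbp. Where counting ignored strand, its reads cannot be told apart from those of Tapbp.

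Tapbpl, the gene of the peptide editor TAPBPR, which acts apart from the TAP complex, lies on chromosome 6 (125223933 to 125231860). It stood at 34.5, 35.2 and 38.5 CPM with IL1B, against 22.4, 22.4, 21.0 and 22.1 with vehicle. The lowest IL1B library was well above the highest vehicle library (log2 fold change 0.71, SE 0.09, edgeR adjusted p = 8.39e-06). Vamp1 covers all 7928 bases of Tapbpl on the opposite strand and was at 5.38 ± 0.889 CPM with IL1B and 5.77 ± 0.857 with vehicle (SD, n = 3 and 4), with an edgeR adjusted p of 0.867. Psmb10, Tapbp and Tapbpl passed under all 16 alternative settings.

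**Figure D3:**
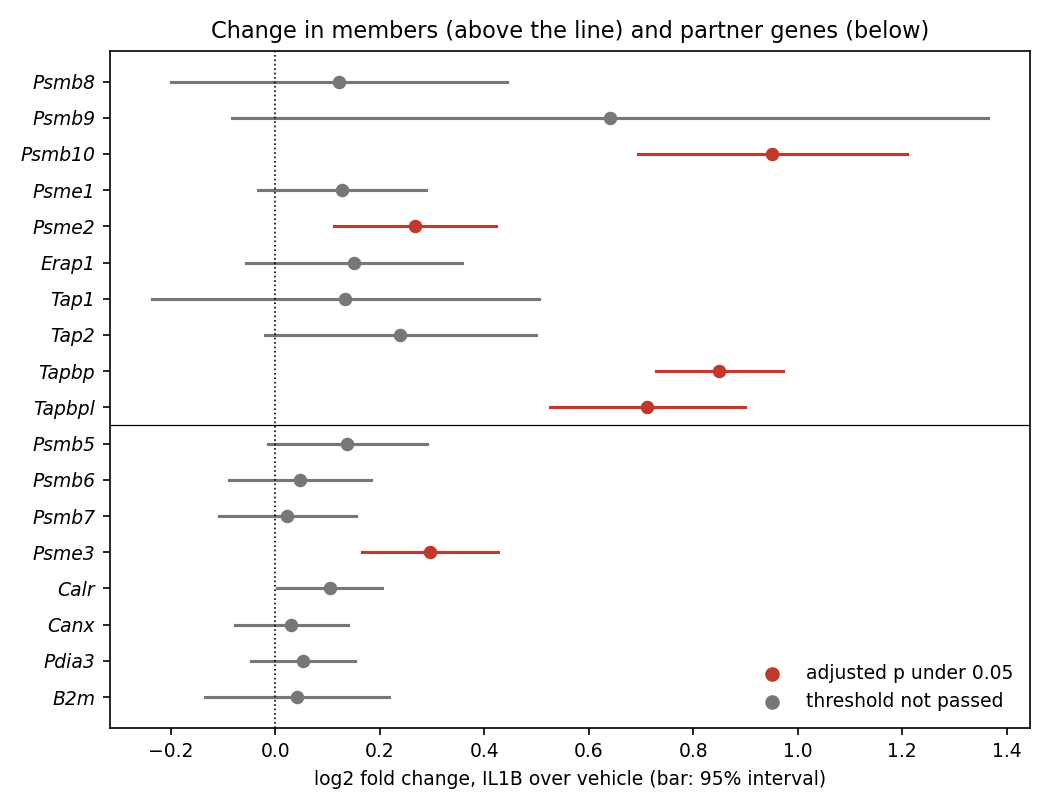
Log2 fold change of IL1B over vehicle for the members, above the line, and for partner genes below it, with 95% intervals from the edgeR fit. Psmb10, Tapbp and Tapbpl have intervals above 0.5. The points of Psme2 and Psme3 lie below 0.3, with intervals that reach 0.423 and 0.427. The intervals of the other members include 0. Among the partner genes, the interval of Calr, 0.0037 to 0.205, lies above 0, but Calr did not pass (edgeR adjusted p = 0.200).

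Per kilobase, the members spanned a wide range. With IL1B the order of mean levels (SD, n = 3) was Psme2 (65.4 ± 0.609 CPM per kb), Tapbp (60.6 ± 2.21), Psme1 (30.6 ± 2.34), Psmb10 (18.6 ± 3.04), Tapbpl (15.3 ± 0.890), Erap1 (6.13 ± 0.220), Tap2 (5.36 ± 0.599), Psmb8 (3.76 ± 0.537), Tap1 (2.18 ± 0.0864) and Psmb9 (0.704 ± 0.153). The order was the same with vehicle, where Psme2 stood at 54.3 ± 5.72, Tapbp at 33.6 ± 0.887, Psmb10 at 9.62 ± 1.09, Tapbpl at 9.34 ± 0.285 and Psmb9 at 0.438 ± 0.183 CPM per kb (SD, n = 4). In both groups the library ranges of Psmb10 and Tapbpl and those of Erap1 and Tap2 overlapped, those of Tap2 and Psmb8 overlapped with vehicle, and Psmb8 stands above Tap2 when the longest transcript is used as the length.

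Members that rose and members that did not pass lie on the same chromosome. Psmb9, Tap1, Psmb8 and Tap2 lie side by side in the class II part of the MHC on chromosome 17, and none of them passed, while Tapbp, on the same chromosome, did. Of 46 tested protein-coding neighbours within 100 kb of a member 5 were higher and 2 lower, against 11.0% of all tested genes called in either direction. Brd2, a bromodomain gene beside the Psmb9 to Tap2 group, rose 1.20-fold (edgeR adjusted p = 0.00260). H2-K1, a class I heavy chain near Tapbp, rose 1.60-fold (edgeR adjusted p = 3.81e-07). Near Tapbpl, Chd4 rose 1.51-fold and Iffo1 fell, with 20.4 CPM with IL1B and 29.2 with vehicle. Near Psmb10, Slc12a4 rose 1.27-fold (adjusted p = 0.0699 when IL1B library 3 was left out) and Thap11 fell, with 46.0 CPM with IL1B and 55.2 with vehicle. The calls of Thap11 and of Ring1, which rose 1.26-fold near Tapbp, were lost under 6 and 12 of the 16 alternatives.

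The other genes of class I antigen processing fell into lists with many calls and lists with few. None of 11 other 20S core subunits passed by edgeR, DESeq2 or limma-voom, and 1 had an edgeR p under 0.05 before adjustment. In the 19S regulator and other activators 1 of 21 rose, Psme3, and none fell by these tools or before adjustment. Among 8 assembly and induction genes 1 rose, Nfe2l1, the factor that raises proteasome genes when degradation fails, at 1.31-fold (edgeR adjusted p = 8.54e-05), and none fell by these tools or before adjustment. The medians of these lists were 0.03, 0.03 and -0.04 on the log2 scale.

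None of 10 other trimming peptidases passed by edgeR, by DESeq2, by limma-voom or before adjustment. Of the 8 folding factors of the endoplasmic reticulum none passed by edgeR, DESeq2 or limma-voom, with 2 at an edgeR p under 0.05 before adjustment. In 4 of the 8 every IL1B library lay above every vehicle library, as in 12.1% of all tested genes. The 8 include Calr and Pdia3, which stand beside tapasin in the loading complex, with folds of 1.08 and 1.04. Canx, also among the 8, had a fold of 1.02. The median log2 fold change was -0.03 for the peptidases and 0.07 for the folding factors. Among class I chains 5 of 11 tested genes rose, with a median log2 fold change of 0.47 over the list, 6 were higher with an edgeR p under 0.05 before adjustment, and none fell by these tools or before adjustment. H2-Q6 (4.14-fold), H2-Q4 (2.04-fold), H2-K1 (1.60-fold) and H2-D1 (1.39-fold) had the smallest adjusted p-values, and these paralogs may share reads. The fifth, H2-Q7, named after its values were seen, rose 1.44-fold (edgeR adjusted p = 0.0168), which no longer passed when IL1B library 2, vehicle library 1 or vehicle library 4 was left out (adjusted p 0.0610 to 0.151). The light chain B2m was at 105 CPM with IL1B and 102 with vehicle (edgeR adjusted p = 0.836). B2m was called higher when the second library of each group was left out (adjusted p = 0.0226).

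**Figure D4:**
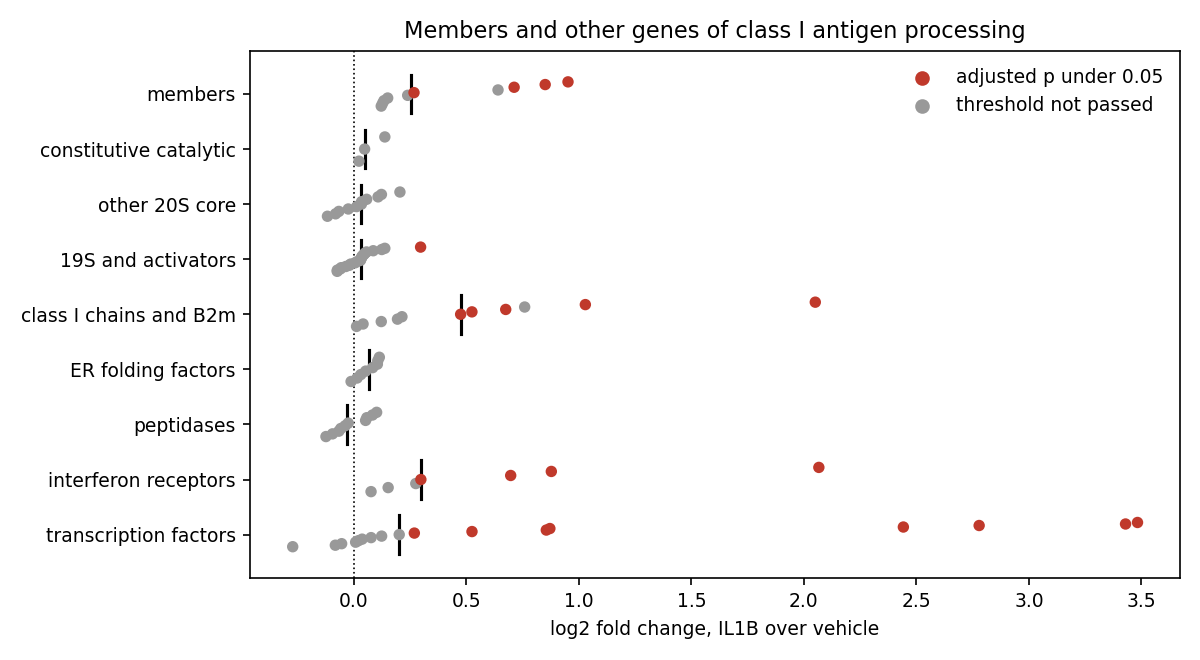
Log2 fold change of every tested gene in the members and in 8 other lists, with calls in red and the list median as a black line. The 20S, 19S, folding factor and peptidase lists lie near 0, while the members, class I chains, interferon receptors and transcription factors spread upward.

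Genes listed as transcriptional regulators of the class I pathway moved unevenly, and their action on the members' promoters was not tested. Of 17 tested 8 rose (7 by DESeq2), and none fell by edgeR, by DESeq2, by limma-voom or before adjustment. The median log2 fold change of the list was 0.20. Relb, Nfkb1 and Nfkb2, NF-kB subunit genes, rose 10.8-fold, 5.43-fold and 11.2-fold, and Rela 1.83-fold. Irf1, which binds interferon-type motifs, stood at 166, 150 and 170 CPM with IL1B, against 23.96, 24.6, 21.5 and 24.1 with vehicle, a 6.86-fold increase (edgeR adjusted p = 9.60e-16). The groups were far apart for this gene. Nlrc5, the class I transactivator, had 17, 11 and 14 counts with IL1B, against 18, 11, 11 and 13 with vehicle, and its level of about 2 CPM overlapped between groups (edgeR adjusted p = 0.922).

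The interferon genes Ifng and Ifnb1 had 0 counts in all 7 libraries, where 3 counts equal 0.395 to 0.557 CPM. Of 7 tested interferon receptor and kinase genes 4 rose by edgeR, DESeq2 and limma-voom alike, 6 were higher with an edgeR p under 0.05 before adjustment, and none fell by any of these. Ifngr2, a chain of the interferon gamma receptor, stood at 89.0, 83.1 and 88.1 CPM with IL1B, against 18.4, 22.2, 21.3 and 21.2 with vehicle (4.19-fold). Ifngr1, its partner, rose 1.84-fold and the kinase gene Tyk2 1.62-fold, and these 7 genes had a median of 0.30 on the log2 scale. Ifnar1 rose 1.23-fold (edgeR adjusted p = 0.0111, or 0.0644 with IL1B library 3 left out).

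The genes of at least 5 CPM whose log2 CPM over the 7 libraries was most like that of Tapbp, the member with the smallest adjusted p, were Slc37a1, Glipr2, Tyk2, Ifngr2 and Csf1, with Pearson r from 0.997 to 0.998. These points share the 7 libraries and fall into the same groups, and 55 of 10902 genes had an r above 0.99. The folds of the 5 named genes ran from 1.62 for Tyk2 to 20.2 for Csf1, against 1.80 for Tapbp.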

How the data were processed

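RNA counts of Beta-TC6 cells with IL1B (3 libraries) or vehicle (4) were analysed. The authors deposited raw counts per gene symbol in 1 table. Per the submitters' processing notes the build was mm10 and the tools of the whole study include Bowtie2, STAR, RSEM, HOMER, R 4.1.0 and DESeq2, with no role named; for these counts the aligner, annotation and strand setting are given by no source used here. Titles number the IL1B samples 1, 3 and 4 and the table's columns 1, 2 and 3, so those columns were assigned to the group only. No label states that replicates came from separate cultures, so the spread behind each p-value may be only technical. Pairs within a group differed beyond sampling noise (chi-square per degree of freedom 1.53 to 4.93, 9 pairs).

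Counts were tested in R 4.3.3 with edgeR 4.0.16 (TMM, filterByExpr, quasi-likelihood F test, all 7 libraries, no covariate; Benjamini-Hochberg over 12480 genes). SE was taken as |log2 fold change| divided by F's square root, and 95% intervals use the fit's t distribution. Alternatives were other scalings and filters, DESeq2 1.42.0, limma-voom 3.58.1, a correction for length and GC content, and left-out libraries. Gene models are GENCODE M21 on GRCm38 (89.7% of symbols had 1 model), and similar transcripts were sought with blastn 2.17.0 (95% identity over 30% of the length). Of 143 list symbols 141 were in the table. Members, lists and tests were chosen with earlier results of these data known. Named genes are the members, partner and regulator genes fixed by name, up to 4 called genes per list, called neighbours, markers and the 5 genes most like the leading member. The floor of 3 counts covers counting error only. Some items under these rules are not reported here.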

Additional observations from a re-analysis of the deposited data

Results flagged for a closer look

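Dixon's test, run on the 4 vehicle values of 48 quantities reported here, set 1 library apart in 1 of them, where chance does so in about 1 in 20 (2.4 of 48). Psmb7, the constitutive partner of Psmb10, stood at 274.7 CPM in the second vehicle library, against 235.5 to 240.1 in the others.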

How the results depend on the processing

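Over 16 alternatives, the members' count of increases was 3 or 4 and that of decreases 0; leaving out each library in turn gave 3 to 4 increases, with Psme2 the member whose call changed. No member or other named gene changed direction past the threshold. Across all genes the number of decreases ran from 252 to 589 when 1 library was left out (252 without IL1B library 3 and 589 without the second vehicle library, against 406), was 676 with the second library of each group left out, and was 867 with the length and GC correction; the cause was not tested. Increases ran from 769 to 1128 over left-out libraries. The inducible share of the catalytic subunits was 3.37% in vehicle with the longest transcript as the length, against 3.08%, as the lengths divided by then change. Over left-out libraries it ran from 4.64% to 5.14% with IL1B and from 3.01% to 3.14% with vehicle. The log2 difference of Psmb10 over Psmb7 ran from 0.83 to 1.05, of Psmb9 over Psmb6 from 0.43 to 0.93, of Psmb8 over Psmb5 from -0.09 to 0.05 and of Psme1 over Psme2 from -0.20 to -0.09; with so few libraries these permutation tests cannot pass. Psmb9 over Psmb6 was 0.28 with the second library of each group left out, against 0.71. Depth limits Psmb9, with 6 to 19 counts a library. No paired analysis was possible because the IL1B columns cannot be tied to the numbered samples.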
